A study of Mus musculus with 4 samples.

Results

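Chromatin accessibility was examined around 9 mouse genes, 8 of mitochondrial fatty acid oxidation (Cpt1a, Cpt1b, Cpt2, Acadm, Acadl, Acadvl, Hadha and Hadhb) and the fatty acid elongase gene Elovl3. Their sites were every ATAC-seq peak whose summit lay within 50 kb of any annotated transcription start site (TSS) of the gene on mm9. Peaks of the 4 libraries that shared at least 1 bp were joined into 1 site. This gave 82 sites, of 75576 within 50 kb of a protein-coding gene and 100904 in all, around 9 of 22238 protein-coding genes. Between the neighbouring genes Hadha and Hadhb 7 of the sites were shared, so the 82 sites made 89 pairs of a gene and a site.

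The libraries came from im-scWAT cells, stromal vascular cells of mouse subcutaneous white fat immortalised with SV40 large T antigen. WT cells were Jmjd1a +/+ and HY cells were Jmjd1a HY/HY. Per the study, a histidine-to-tyrosine change in HY leaves JMJD1A, a demethylase of lysine 9 on histone H3, defective in demethylation. D0 cells were confluent and undifferentiated. D8 cells had received indomethacin, dexamethasone, 3-isobutyl-1-methylxanthine, rosiglitazone, insulin and T3 for 2 days, then insulin, T3 and rosiglitazone alone for 6 days. Each of the 4 groups (WT D0, WT D8, HY D0 and HY D8) was 1 library, so every difference below is a difference between libraries and carries no replicate check. Each genotype was represented by 1 immortalised line, and a difference between lines and one between genotypes cannot be told apart. The point mutation itself leaves no trace in peak lists and could not be checked.

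Fatty acid oxidation in mitochondria is a main source of energy and heat in beige and brown adipocytes. Long-chain acyl-CoA enters mitochondria through the carnitine shuttle, in which CPT1 on the outer membrane makes acylcarnitine and CPT2 on the inner membrane turns it back into acyl-CoA. Acyl-CoA dehydrogenases for medium, long and very long chains (Acadm, Acadl and Acadvl) take the first step of each cycle, and the trifunctional protein of the Hadha and Hadhb subunits carries out the remaining steps on long chains. Elovl3 lengthens very long chain fatty acids in the endoplasmic reticulum and is known as a cold-induced gene of brown fat. Many of these genes are textbook targets of PPAR nuclear receptors, which bind a direct repeat of AGGTCA with 1 base between (DR1).

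The 4 peak lists held 41228 to 77994 peaks, and the D0 lists were the longer ones. For each peak the whole number of overlapping tags at the summit (the pileup) and the local background were recovered from the deposited fold enrichment and p-value. The genome-wide background was 0.659 tags at D0 and 0.531 at D8 in WT, and 0.708 and 0.494 in HY. By this rate D8 was the shallower day in both genotypes, and no read counts were used. Pileups below are as sequenced unless called depth-scaled, which means divided by that background. At that background a peak needed a pileup of 4 or 5, and more where the local background was higher, so a site without a peak may still be accessible below that level. Adipocyte marker promoters with a peak numbered 4 of 8 at D0 and 8 of 8 at D8 in both genotypes, while macrophage and muscle marker promoters had none. Of 2 endothelial markers, Pecam1 had a promoter peak in WT D0 alone (pileup 9). Of 2 thermogenic markers, Ucp1 had no promoter peak in any library, and Cidea had one in WT D8 (pileup 9), HY D0 (7) and HY D8 (13). Within 50 kb, sites with a D8 peak and no D0 peak in both genotypes numbered 3 for Ucp1 and 0 for Cidea. At least 1 such site lay near 27.9% of all protein-coding genes. Preadipocyte marker promoters with a peak numbered 6 of 7 in WT D0, 5 in HY D0 and 2 in each D8 library. Chromosome Y held 1 peak in each WT library and 7 and 6 in HY D0 and HY D8. In a bulk library, a smaller share of cells of a type and less accessibility per cell cannot be told apart.

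The 6 windows below show chromatin that had a peak at D8 and none at D0 in both genotypes at 5 gene neighbourhoods, and were chosen after their values were seen as the sites on which the results turn. Each is 201 bases centred on the summit of the stronger library, plus strand of mm9, and capitals mark a matched motif. In Cpt1b and Hadha the capitals are a DR1 with up to 2 mismatches, AGGTCANAGGTCA, overlapping a half-site AAGGTCA. In Cpt2 they are the AP-1 motif TGANTCA.
Cpt1b promoter, chr15:89256351-89256551: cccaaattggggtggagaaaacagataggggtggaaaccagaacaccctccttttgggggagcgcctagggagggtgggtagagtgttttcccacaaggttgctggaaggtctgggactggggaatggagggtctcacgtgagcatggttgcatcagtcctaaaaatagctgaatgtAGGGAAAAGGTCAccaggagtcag
Hadha intron, chr5:30462499-30462699: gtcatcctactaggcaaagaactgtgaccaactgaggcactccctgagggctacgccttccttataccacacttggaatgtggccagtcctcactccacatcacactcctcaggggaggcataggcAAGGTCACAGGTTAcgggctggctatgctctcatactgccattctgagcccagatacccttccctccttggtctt
Hadhb intron, chr5:30498712-30498912: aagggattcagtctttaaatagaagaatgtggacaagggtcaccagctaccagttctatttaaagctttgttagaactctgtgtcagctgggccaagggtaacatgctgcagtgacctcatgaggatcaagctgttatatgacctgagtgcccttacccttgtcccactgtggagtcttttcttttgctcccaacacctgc
Cpt2 intron, chr4:107594608-107594808: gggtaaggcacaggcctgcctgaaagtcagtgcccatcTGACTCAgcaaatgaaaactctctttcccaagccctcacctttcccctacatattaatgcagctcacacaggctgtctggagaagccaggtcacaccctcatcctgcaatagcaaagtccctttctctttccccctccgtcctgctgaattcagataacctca
Elovl3 upstream, chr19:46184855-46185055: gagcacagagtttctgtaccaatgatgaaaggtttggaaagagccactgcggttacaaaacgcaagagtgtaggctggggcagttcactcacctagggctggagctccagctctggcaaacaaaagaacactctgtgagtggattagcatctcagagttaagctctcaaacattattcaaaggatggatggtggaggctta
Acadl upstream, chr1:66918122-66918322: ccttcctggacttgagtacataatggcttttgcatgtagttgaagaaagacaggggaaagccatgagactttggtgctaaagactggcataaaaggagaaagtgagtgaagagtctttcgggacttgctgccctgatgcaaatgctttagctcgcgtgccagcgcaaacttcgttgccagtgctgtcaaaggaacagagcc

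The Cpt1b and Hadha windows were the 2 of 9 sites opened in both genotypes that held the DR1 with up to 2 mismatches in its 12 fixed bases. Among all 4610 sites opened in both genotypes, 7.64% held it, against 2.44% of 17158 sites closed in both genotypes and 2.09% of 21170 sites with a peak in all 4 libraries. Near the 9 genes it was in 0 of 9 closed sites and in 1 of 37 with a peak in all 4 libraries, the Acadvl promoter. The half-site AAGGTCA was in the same 2 windows and in 1 of 9 closed sites, 32.9 kb downstream of the Cpt1b TSS. Over all genes it was in 5.84% of opened and 3.57% of closed sites. The C/EBP motif TTGCNNAA was in 2 of 9 opened sites, both outside the windows shown (23.2 kb downstream of the Cpt2 TSS and 64.7 kb downstream of the Hadhb TSS), and in 0 of 9 sites closed in both genotypes. Over all genes it was in 26.3% of opened and 7.84% of closed sites. The AP-1 motif was in 1 of 9 opened and 3 of 9 closed sites near the 9 genes, and in 6.98% and 30.3% over all genes. Of 3 further motifs, TCAAGGTCA (bound by estrogen-related receptors), TCCCNNGGGA (EBF) and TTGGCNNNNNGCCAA (NFI), no member site of these classes held 1, and among all opened sites they were in 0.239%, 2.52% and 0.0651%. The stricter repeat AGGNCANAGGNCA without mismatches was in 0 of 9 opened member sites and 0.933% of all opened sites. Both strands were searched, the half-site and the stricter repeat overlap the DR1, and a match is a string of letters, not a measured binding event.

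Across the 4 libraries, peaks were found at 55 (D0) and 51 (D8) of the 82 sites in WT and at 58 and 54 in HY. A site with a D8 peak and no D0 peak is called opened, and the reverse closed. In WT 14 sites opened, 18 closed, 37 had a peak on both days and 13 had none. In HY 14 opened, 18 closed, 40 had a peak on both days and 10 had none. The counts of opened and of closed sites were thus equal in the genotypes, although the sites were not all the same. With peaks of −log10 q of at least 5 only, opened sites were 12 of 46 D8 sites in WT, beside 22.6% near all genes, and 7 of 41 in HY, beside 22.3%, and whether the genotypes differ was not tested. Opened sites were 27.5% of the WT D8 sites near the 9 genes (95% Clopper-Pearson interval 15.9 to 41.7), beside 23.7% near all protein-coding genes, and 25.9% in HY (15.0 to 39.7), beside 24.9%. Closed sites were 32.7% of the WT D0 sites (20.7 to 46.7), beside 55.2%, and 31.0% in HY (19.5 to 44.5), beside 52.5%. Of the 82 sites, 36 had a member as the nearest protein-coding TSS, so these shares also describe sites of neighbouring genes. The intervals cover counting error only and treat sites as independent, which neighbouring sites are not. When each list was cut to its 41228 strongest peaks, closed sites numbered 7 in each genotype. They were 17.1% of the WT D0 sites (7.15 to 32.1), beside 36.7% near all genes, and 16.3% in HY (6.81 to 30.7), beside 35.1%.

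**Figure D1:**
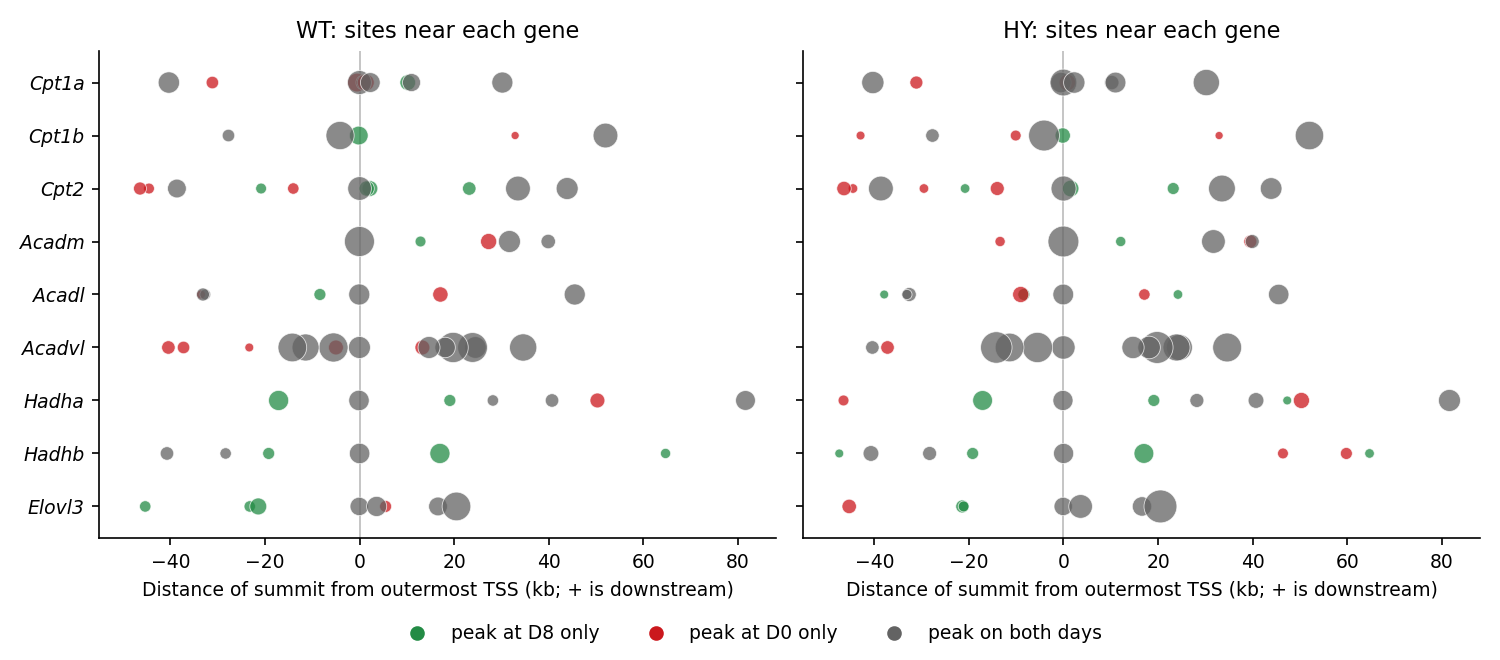
Map of the accessible sites of each gene in WT (left) and HY (right), with the distance of the summit from the outermost TSS in kb on the x axis. Dot area is proportional to the higher pileup of the 2 days, and colour gives the days with a peak. Large grey promoter dots sit at 0 for every gene except Cpt1b, the Acadvl row has no green dot, and the large green dot near Hadhb is in both panels.

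**Figure D2:**
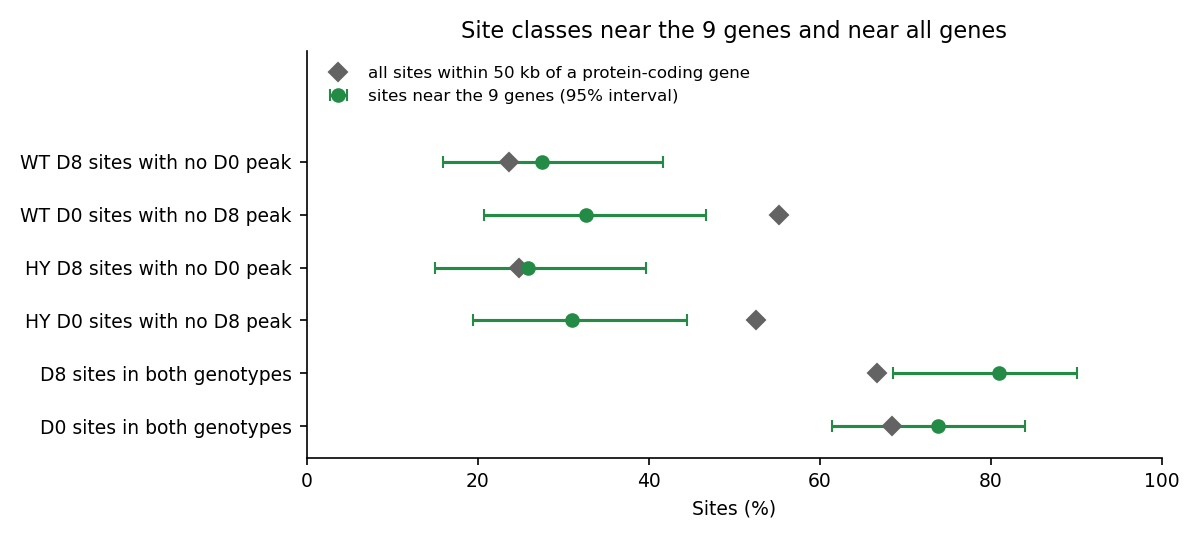
Share of sites in each class (x axis, %) for the 9 genes (green dots, 95% Clopper-Pearson intervals) and for all sites within 50 kb of a protein-coding gene (grey diamonds). The intervals of the opened shares (27.5% and 25.9%) cover the diamonds, whereas closed shares are 32.7% and 31.0% against 55.2% and 52.5%.

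Most, but not all, D8 sites were found in both genotypes. Of 58 sites with a D8 peak in either genotype, 47 had one in both (81.0%, 68.6 to 90.1), beside 66.7% near all genes. At D0 this was 48 of 65 (73.8%, 61.5 to 84.0), beside 68.5%, a share near that of all genes. Of the 82 sites, 9 opened in both genotypes, beside 6.10% of all near-gene sites, 9 closed in both, beside 22.7%, and 37 had a peak in all 4 libraries, beside 28.0%. At a −log10 q of at least 5 in both D8 libraries, 6 of the 9 opened sites were left, beside 61.2% of all 4610. At least 1 site opened in both genotypes lay near 6 of the 9 genes, beside 27.9% of all protein-coding genes, a share taken over genes with and without any peak. The exceptions were Cpt1a, Acadm and Acadvl. For 7 of the 9 opened sites the nearest protein-coding TSS belonged to a member, which held for 36 of all 82 sites. A peak in 1 library only was seen at 23 sites, with a median −log10 q of 4.45. No share over all near-gene sites stands beside this count, so it cannot be read as high or low.

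Where both genotypes had a peak on the same day, the depth-scaled HY to WT ratio of pileups was 0.517 to 1.71 at D0 (median 1.09, 48 sites) and 0.635 to 1.51 at D8 (median 1.04, 47 sites). At 0 of the 48 and 0 of the 47 sites did the exact 95% interval of the ratio leave out 1, and over all near-gene sites it did so at 2.04% and 0.977%. A single ratio is loosely bounded at these pileups. At the Acadl promoter at D8, for example, the interval was 0.626 to 1.73, so smaller differences between the WT and HY libraries were not detectable at this depth.

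At their promoters (1000 bp upstream to 100 bp downstream of a TSS), 8 of the 9 genes had a peak in all 4 libraries. The exception was Cpt1b. Over all protein-coding genes, with and without any peak, the share was 49.0%. The pileup summed over the distinct promoter sites and scaled by depth was 1.20 times as high at D8 as at D0 in WT (1.01 to 1.43) and 1.21 times in HY (1.02 to 1.43), but on the deposited fold enrichment the ratios turned to 0.906 and 0.905. Over the 7 distinct sites the median ratio was 1.24 in WT and 1.16 in HY, beside 0.973 and 1.02 over 9820 distinct promoter sites of all genes, and on fold enrichment it was 0.852 and 0.898, beside 0.936 and 0.932. Fold enrichment uses the local background and adds 1 to both terms, and which of these turned the ratio was not tested. None of the 8 promoters was over 2-fold higher in both genotypes, beside 0.477% of all promoters.

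**Figure D3:**
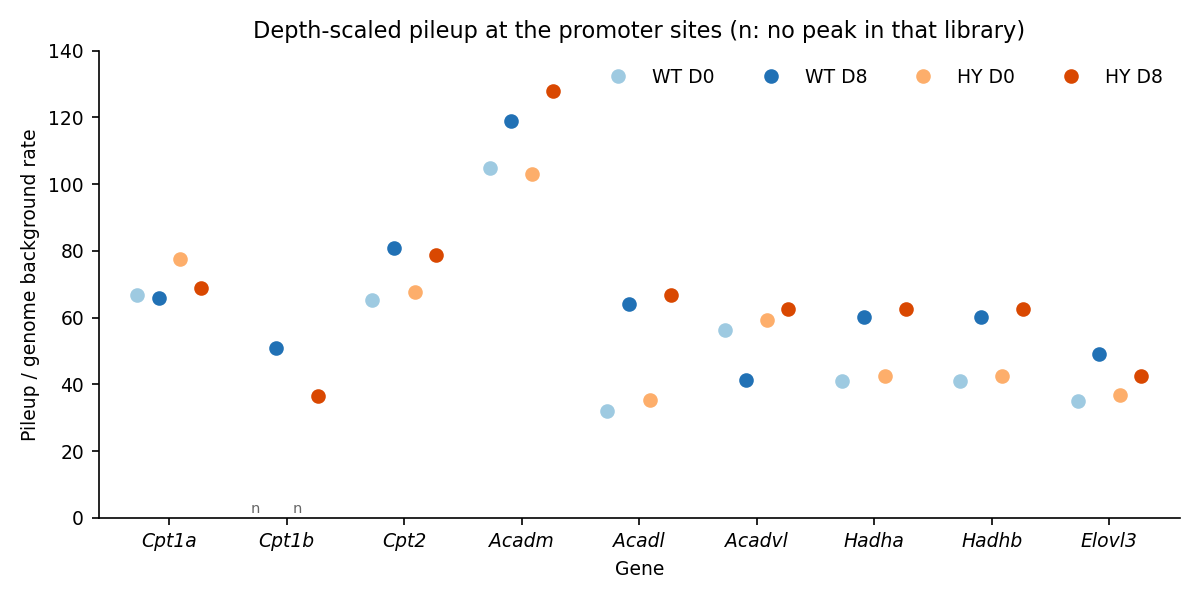
Depth-scaled pileup (y axis, pileup divided by the genome background rate of the library) at the promoter site of each gene in the 4 libraries, 1 dot per library. Acadl is higher in both D8 libraries than in both D0 libraries, Cpt1b has no D0 peak, and Hadha and Hadhb show 1 shared site.

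Of the carnitine shuttle genes, Cpt1b was the one with a promoter peak in the D8 libraries only. Cpt1b (ENSMUSG00000078937.2, chr15:89246836-89256294, minus strand), the muscle-type CPT1 that brown adipocytes also use, had a promoter site at chr15:89256250-89256604, 157 bp upstream of the TSS and inside an intron of the overlapping gene Chkb. This is the first window printed above, with the DR1 match 77 bases past the summit. There was no peak in WT D0 or HY D0, and the D8 pileup was 27 in WT (−log10 q 9.40) and 18 in HY (−log10 q 4.15). The HY peak falls below a −log10 q of 5, so at that filter the site opened in WT alone. A promoter site opened in both genotypes at 1 of the 9 genes, beside 1.36% of all protein-coding genes. The local background was high, 4.83 in WT D8 and 4.36 in HY D8. With the background of the nearest D0 peak, a D0 peak would have needed a pileup of 13 in WT and 15 in HY, so a D0 signal under that would not be listed. Scaled to the D0 depth of the same genotype, the D8 pileup was 33.5 in WT (exact Poisson interval 22.1 to 48.8) and 25.8 in HY (15.3 to 40.7), above those limits. The HY to WT ratio at D8 was 0.716 (0.372 to 1.35). The other 6 sites around Cpt1b lay in or beside other genes, with 3 of them in all 4 libraries and 1 closed in both genotypes, 32.9 kb downstream with a pileup of 5 in each D0 library.

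Cpt1a (ENSMUSG00000024900.4, chr19:3323301-3385732, plus strand), the widely expressed CPT1, had its promoter peak 18 bp upstream of the TSS at chr19:3323000-3323558. Its pileup went from 44 tags at D0 to 35 at D8 in WT and from 55 to 34 in HY, and the depth-scaled D8 to D0 ratio was 0.987 in WT (0.615 to 1.57) and 0.885 in HY (0.560 to 1.38). The core promoter was thus accessible on both days, with ratios whose intervals include 1. A second promoter site 534 bp upstream had a pileup of 27 in WT D0, 32 in HY D0 and 16 in HY D8, and no peak in WT D8. No site near Cpt1a opened in both genotypes. An intron site 10.2 kb downstream, singled out after its values were seen, opened in WT, with a pileup of 19, and had a peak on both days in HY, with 16 and 12. Sites closed in both genotypes lay 31.1 kb upstream in an intron of Mrpl21 (12 in WT D0 and 13 in HY D0) and 0.813 kb downstream in an intron of Cpt1a (17 and 21).

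Cpt2 (ENSMUSG00000028607.9, chr4:107576586-107596215, minus strand) had 3 sites opened in both genotypes, as did Hadhb, the highest number among the 9 genes. Its promoter site, chr4:107595852-107596666, had a pileup of 43 at D0 and 43 at D8 in WT, and of 48 and 39 in HY, with ratios of 1.24 (0.794 to 1.94) and 1.16 (0.743 to 1.81), and 0.849 and 0.737 on the deposited fold enrichment. Of the 12 Cpt2 sites, 3 opened in both genotypes. The first, in an intron 1.51 kb downstream of the TSS (chr4:107594612-107594913, the Cpt2 window printed above), had a D8 pileup of 18 in WT and 21 in HY. There a D0 peak would have needed a pileup of 10 in WT and 9 in HY. The second, between genes 23.2 kb downstream (chr4:107572866-107573111), had 14 and 11 tags, and the last, 20.8 kb upstream (chr4:107616850-107617041), had 9 and 7. At D0 depth the last had 11.2 in WT (5.11 to 21.2) and 10.0 in HY (4.03 to 20.7) against a needed 5, so in HY its interval spans the limit. Beside the first, a site 2.21 kb downstream had a peak in WT D8 alone, with a pileup of 19 and a −log10 q of 6.52. Sites closed in both genotypes lay 14.0 kb, 44.5 kb and 46.4 kb upstream, with D0 pileups of 7 to 16. The one at 44.5 kb lay 36 bp upstream of the Slc1a7 TSS, and the one at 46.4 kb in an intron of Slc1a7. A site 38.6 kb upstream, nearer to the TSS of Slc1a7 than to that of Cpt2, was singled out after its values were seen. It had a pileup of 27 at D0 and 14 at D8 in WT, and of 47 and 9 in HY. Its ratio was 0.644 in WT (0.312 to 1.27) and 0.274 in HY (0.118 to 0.566), and the difference between these ratios was not tested.

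**Figure D4:**
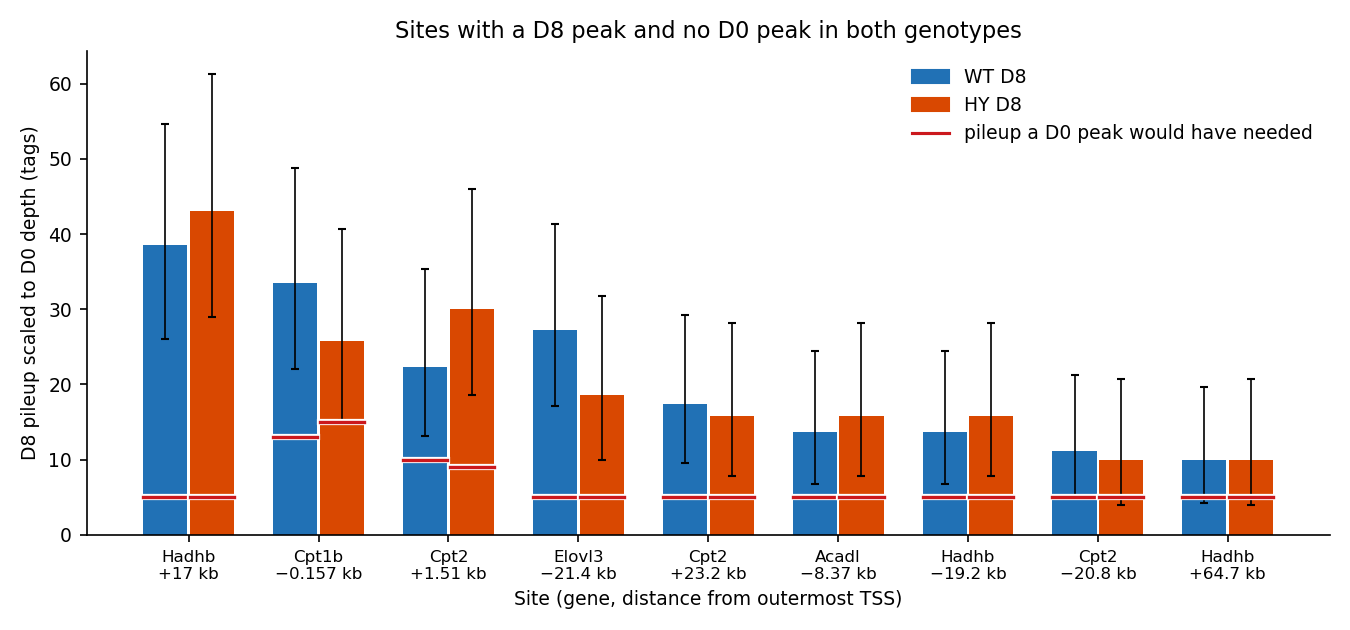
Pileup scaled to the D0 depth of the genotype, in tags (y axis), at the 9 sites with a D8 peak and no D0 peak in both genotypes, in WT D8 (blue) and HY D8 (orange), with exact 95% Poisson intervals and, as red lines, the pileup a D0 peak would have needed. The Hadhb intron site reached 38.5 in WT against a needed 5, whereas the lower ends of the intervals reach below the line at the site 64.7 kb from Hadhb and, in HY, at the Cpt2 site 20.8 kb upstream.

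Among the acyl-CoA dehydrogenases, Acadl stood highest in its D8 to D0 ratio. Acadl (ENSMUSG00000026003.5, chr1:66877413-66909851, minus strand), the long-chain enzyme, had a promoter site at chr1:66909281-66910080, 49 bp upstream of the TSS. Its pileup was 21 and then 34 in the WT libraries at D0 and D8, and 25 and then 33 in the HY libraries, so both D8 libraries were above both D0 libraries even before scaling. The depth-scaled ratio was 2.01 in WT (1.13 to 3.64) and 1.89 in HY (1.09 to 3.32), and 1.16 and 1.15 on the deposited fold enrichment. No other member promoter had an interval clear of 1 in either genotype. The local background at the site also differed between days, at 1.43 and 2.33 in WT and 1.67 and 2.05 in HY. A site 45.5 kb downstream, singled out after its values were seen, had 22 and 34 in WT and 30 and 32 in HY. It lies at the TSS of 1110028C15Rik and joins several peaks over 2127 bp with summits up to 1584 bp apart, so its ratios (1.92 and 1.53) compare different positions. A site 8.37 kb upstream (chr1:66918152-66918571, the Acadl window printed above) opened in both genotypes with a pileup of 11 in each D8 library. A neighbouring site 9.04 kb upstream, also chosen after its values were seen, had a peak in HY D0 alone, with a pileup of 20 and a −log10 q of 20.1, the highest among the 23 sites with a peak in 1 library. An intron site 17.1 kb downstream closed in both genotypes, from 18 in WT D0 and 10 in HY D0.

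Acadm (ENSMUSG00000062908.6, chr3:153585321-153607596, minus strand), the medium-chain enzyme, had the highest promoter pileup of the group in every library, at chr3:153606897-153608067. It moved from 69 to 63 tags between the days in WT, and from 73 to 63 in HY, with ratios of 1.13 (0.792 to 1.62) and 1.24 (0.868 to 1.76), which turned to 0.791 and 0.848 on the deposited fold enrichment. No site near Acadm opened or closed in both genotypes. In its introns, a site 12.9 kb downstream had a peak in WT D8 alone (pileup 9, −log10 q 5.59), and a separate site 12.1 kb downstream had one in HY D8 alone (pileup 8, −log10 q 5.81).

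Acadvl (ENSMUSG00000018574.8, chr11:69823685-69828913, minus strand), the very long chain enzyme, lies in a gene-dense stretch, and its TSS was the nearest protein-coding one for 1 of its 15 sites. Its promoter site, chr11:69828407-69829052, had a pileup of 37 at D0 and 22 at D8 in WT, and of 42 and 31 in HY. The ratio was 0.738 in WT (0.415 to 1.28) and 1.06 in HY (0.642 to 1.72), both with intervals that include 1, and 0.852 and 1.00 on the deposited fold enrichment. No site near Acadvl opened in either genotype, while 10 had a peak in all 4 libraries. Of the sites near Acadvl, the lowest ratios were in introns of the adjoining gene Dlg4, which encodes a synaptic scaffold protein, at sites singled out after their values were seen. The one 14.2 kb upstream of Acadvl had a pileup of 63 at D0 and 18 at D8 in WT, and of 76 and 15 in HY, with ratios of 0.355 (0.198 to 0.607) and 0.283 (0.151 to 0.496). The one 11.4 kb upstream had 56, 22, 63 and 20 in the same order, with ratios of 0.488 (0.284 to 0.812) and 0.455 (0.260 to 0.762). Both lie at internal Dlg4 start sites. On the deposited fold enrichment the first went from 7.56 to 6.83 in WT and from 8.03 to 5.66 in HY, but the second turned, from 6.44 to 8.01 and from 6.45 to 7.22. The first also joins up to 3 peaks per library, with summits up to 344 bp apart.

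**Figure D5:**
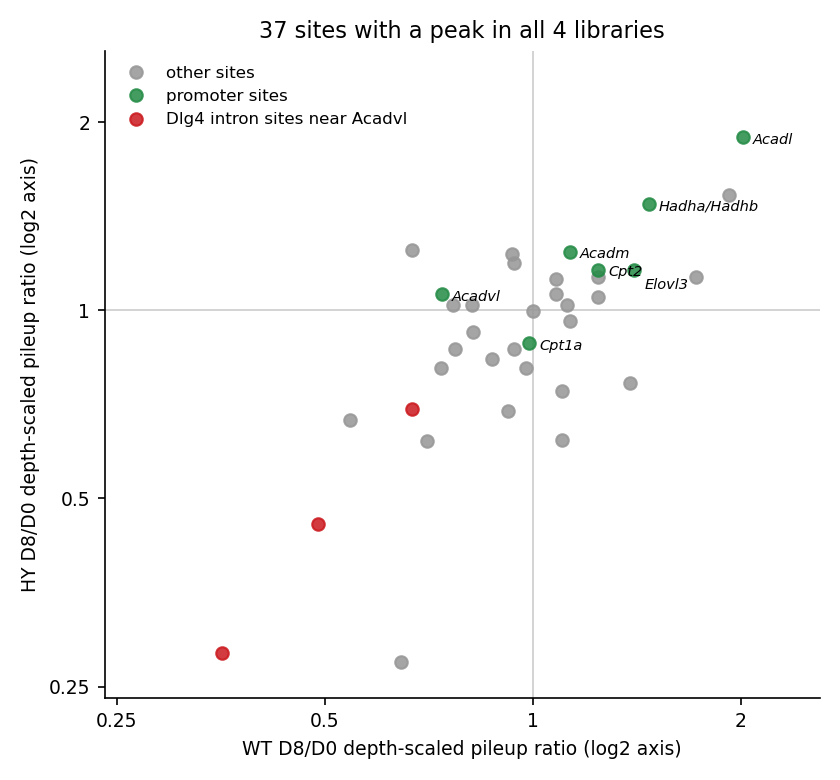
D8 to D0 ratio of depth-scaled pileup in WT (x axis) and HY (y axis), both on log2 axes, for the 37 sites near the 9 genes with a peak in all 4 libraries. Acadl sits at the upper right (2.01 and 1.89), the Dlg4 intron sites at the lower left, and most other sites around 1.

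Over these 37 sites the median ratio was 0.977 in WT and 0.999 in HY, beside 0.913 and 0.955 over 21170 such sites near all genes. In WT the interval lay above 1 at 2 sites, beside 4.25% of 23531 near-gene sites with a peak on both days, and below 1 at 2, beside 12.4%. In HY, where 40 sites had a peak on both days, these numbers were 1, beside 4.89% of 27545, and 3, beside 13.2%. The shares above 1 were thus near those over all genes. The sites above 1 were the Acadl promoter in both genotypes and the site 45.5 kb downstream of Acadl in WT. Among the other sites with a peak in all 4 libraries, summits lay at most 467 bp apart. Those below 1 were the pair of Dlg4 intron sites in both genotypes and the site 38.6 kb upstream of Cpt2 in HY.

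Hadha (ENSMUSG00000025745.5, chr5:30444841-30481702, minus strand) and Hadhb (ENSMUSG00000059447.7, chr5:30481788-30511133, plus strand) encode the alpha and beta subunits of the trifunctional protein and start back to back. Their shared promoter site, chr5:30481073-30482242, had a pileup of 27 at D0 and 32 at D8 in WT, and of 30 and 31 in HY. The ratios were 1.47 (0.854 to 2.55) and 1.48 (0.866 to 2.53), with intervals that include 1, and 0.843 and 0.947 on the deposited fold enrichment. The site with the highest −log10 q of all 9 opened in both genotypes lay in an intron of Hadhb, 17024 bp downstream of its TSS (chr5:30498607-30499130, the Hadhb window printed above). Its D8 pileup was 31 in WT and 30 in HY, about that of the shared promoter on the same day, and a D0 peak would have needed 5. In an intron of Hadha, 19.1 kb downstream of its TSS (chr5:30462359-30462700, the Hadha window printed above, with the DR1 match), a site opened with a pileup of 11 in each D8 library. One more site, between genes, 64.7 kb downstream of the outermost Hadhb TSS and nearest to Gm5299 (chr5:30546310-30546642), opened with 8 and 7. At D0 depth these were 9.93 (4.29 to 19.6) and 10.0 (4.03 to 20.7), and both intervals span the needed 5. An internal Hadha TSS had a peak in all 4 libraries, with pileups of 9 and 10 in WT and 15 and 8 in HY. A site 50.3 kb downstream of the outermost Hadha TSS, beside the TSS of Fam59b, closed in both genotypes from 17 and 20.

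Elovl3 (ENSMUSG00000038754.3, chr19:46206387-46210184, plus strand) had its promoter peak 56 bp upstream of the TSS at chr19:46206165-46206451. Its pileup went from 23 tags at D0 to 26 at D8 in WT and from 26 to 21 in HY, so the promoter was already accessible in undifferentiated cells. The ratio was 1.40 in WT (0.770 to 2.57) and 1.16 in HY (0.619 to 2.14), both with intervals that include 1, and 0.921 and 0.813 on the deposited fold enrichment. Upstream, a site at 21.4 kb (chr19:46184779-46185132, the Elovl3 window printed above) opened in both genotypes, with a D8 pileup of 22 in WT and 13 in HY and a HY to WT ratio of 0.635 (0.294 to 1.32). Sites beside it, named after their values were seen, had a weaker D8 peak in 1 genotype, at 23.2 kb in WT (pileup 10) and at 21.1 kb in HY (pileup 9). A site 45.3 kb upstream, nearer to Nolc1 than to Elovl3, had a pileup of 10 in WT D8 and 16 in HY D0 and no peak in WT D0 or HY D8. It was the only one of the 82 sites that opened in WT and closed in HY. A site at the 3′ end of Elovl3, 3.62 kb downstream and named likewise, had 31 at D0 and 25 at D8 in WT, and 43 and 30 in HY, with ratios of 1.00 and 0.999.

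The remaining genes of the pathway were taken from a list of 47 genes of mitochondrial entry, the mitochondrial spiral, electron transfer, peroxisomal oxidation and its regulators. Of these 47, 44 had a promoter peak in all 4 libraries, beside 49.0% of all protein-coding genes. A site opened in both genotypes lay within 50 kb of 33, beside 27.9%. Both shares over all genes are taken over genes with and without any peak. The median promoter ratio was 1.12 in WT and 1.15 in HY, with 29 and 34 of the 44 higher at D8. Over 10891 promoters of all genes the medians were 0.975 and 1.02, with 46.0% and 53.6% higher. On the deposited fold enrichment the list medians were 0.887 and 0.875, with 10 and 5 of the 44 higher, beside medians of 0.936 and 0.932 over the 9820 distinct promoter sites. A promoter site opened in both genotypes at 4 of the 47, beside 1.36%. These were Acsl1, an acyl-CoA synthetase that activates long chains, Acox2, a peroxisomal acyl-CoA oxidase, Ppargc1a, the PPAR coactivator of mitochondrial biogenesis, and Acacb, which makes the malonyl-CoA that inhibits CPT1. Acox2 had a D8 pileup of 29 in WT and 34 in HY, and Ppargc1a 14 and 15, with no D0 peak in either. Acsl1 and Acacb also had another promoter site with a peak in all 4 libraries. A promoter site closed in both genotypes at 4 of the 47, beside 6.04% of all protein-coding genes, namely Acad12, Hsd17b10, Abcd3 and Acacb. Acsl5 had no promoter peak in any library. Of the 6 other elongase genes, 4 had a promoter peak in all 4 libraries, with median ratios of 1.08 in WT and 0.972 in HY (1.06 and 0.834 on fold enrichment). A site opened in both genotypes near 1 of the 6, Elovl5, and a promoter site closed in both at Elovl1.

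The 3 promoters of these lists and of the members whose 4 depth-scaled pileups lay nearest to those of Acadl were Mlycd, Hadha and Hadhb, of 55 candidates. The Euclidean distance over the 4 log2 values was 0.405 for Mlycd and 0.465 for Hadha and Hadhb, which share 1 site. Mlycd, which encodes the decarboxylase that removes malonyl-CoA, had a pileup of 24 at D0 and 35 at D8 in WT, and of 30 and 28 in HY, with ratios of 1.81 and 1.34 (1.13 and 0.725 on fold enrichment).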

How the data were processed

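ATAC-seq libraries of im-scWAT cells (1 each of WT D0, WT D8, HY D0 and HY D8) were deposited as MACS narrowPeak lists, 1 per library. Per the study's methods, ATAC-seq data went through the procedure used for ChIP-seq. Reads were trimmed with Trimmomatic and aligned to mm9 with Bowtie2, and duplicates and files were handled with Picard and SAMtools. For peaks, that procedure names MACS3 for transcription factors and HOMER for JMJD1A, and no caller is named for ATAC-seq by itself. Versions, the peak threshold and any shift for Tn5 insertion are not given in the sources used here. The submitters' processing notes also name deepTools.

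The deposited fold enrichment is a linear ratio of the pileup to the local background, with 1 added to each. The deposited −log10 p-values and −log10 q-values are those of MACS, with lowest −log10 q of 1.30 to 1.32. The deposited score restates the q-value and was read but not used. The authors' summit offset, in bp from the peak start, is a position and placed each peak.

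From fold and p the whole-number pileup and local background were solved for 100% of peaks (tolerance 0.002 in −log10 p), against 0.866% to 1.51% when p-values were shuffled between peaks. The solver was tested on simulated data. The background rate served as relative depth, 0.806 (WT D8), 1.07 (HY D0) and 0.750 (HY D8) of WT D0. Ratios have exact conditional 95% intervals that cover counting error only. No test between groups was run, since each is 1 library. Genes and sequence came from GENCODE vM1 and NCBIM37, on which 0 of 100904 sites ran past a chromosome end, although 294 lay on sequences it does not name and could not be checked.

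Members and lists were chosen with earlier results of these data known. Named were promoter sites, up to 3 sites per gene opened and 2 closed in both genotypes, D8 sites in 1 genotype with −log10 q of at least 5, list genes with such a promoter site, and 3 promoters nearest in pattern. Any other site named, including the third closed Cpt2 site, was chosen after its values were seen. Alternatives were 50% coverage, 10 and 100 kb, −log10 q of at least 5, equal list length, nearest TSS only and other scalings. Python 3.11.15, NumPy 2.4.6, pandas 2.3.3, SciPy 1.17.1 and Matplotlib 3.10.9 were used.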

Additional observations from a re-analysis of the deposited data

Results flagged for a closer look

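At the Acadvl promoter the D8 to D0 ratio was below 1 in WT (0.738) and above 1 in HY (1.06), a difference of 0.52 on the log2 scale, HY minus WT. On depth-scaled pileup the single libraries moved in opposite directions, the difference between the genotypes was not tested, and both intervals include 1. On the deposited fold enrichment the ratios were 0.852 and 1.00, so HY did not move up there, and the pileup before scaling fell in both genotypes, from 37 to 22 in WT and from 42 to 31 in HY.

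The site 45.3 kb upstream of Elovl3 opened in WT, with a pileup of 10 at D8, and closed in HY, with a pileup of 16 at D0. The difference was not tested, and its nearest protein-coding TSS is that of Nolc1.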

How the results depend on the processing

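No paired analysis by replicate number was possible because the labels carry none. D0 and D8 were set against each other within each line throughout, and a model with day and line as terms, which 4 libraries would allow, was not run. Counts of sites moved by more than 1.5 times under these settings. With 50% coverage as the rule for a shared peak, closed sites in WT were 28. In HY they were 27, against 18 in each genotype by the main rule, which was not more than 1.5 times. Within 10 kb, opened sites were 6 in each genotype, closed sites 6 in WT and 2 in HY, and D8 sites in both genotypes 18. Within 100 kb, closed sites were 36 and 35 and D8 sites in both genotypes 71. At a −log10 q of at least 5, opened sites were 12 in WT and 7 in HY, against 14 in each. With lists of equal length, closed sites were 7 in each genotype. With the nearest TSS only, closed sites were 6 and 5 and D8 sites in both genotypes 22. The summed promoter ratio turned direction on the deposited fold enrichment, to 0.906 in WT and 0.905 in HY, and held it at 1.19 to 1.34 under 2 other scalings. The cause was not tested. Scaling on all sites with a peak in all 4 libraries instead of the background moves every ratio by the same amount, since those sites have a median log2 ratio of -0.16 in WT and -0.08 in HY. The other 19 alternative values of these results stayed within 1.5 times or within their interval. At the genome-wide background the lists stop at pileups of 4 or 5, and at a higher local background at 9 to 15 (the Cpt1b promoter and Cpt2 intron at D0), so weaker sites are not seen.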
